A study of Mus musculus with 32 samples.

Results

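Solute carriers are the membrane proteins that move sugars, amino acids, metals, ions, nucleotides and vitamins across the plasma membrane and the membranes of organelles. The genes described here are those whose mouse symbol begins with Slc, a family number and a letter, in wells of all 8 groups of the experiment. The mitochondrial Slc25 family with 40 genes and the Slco family with 5 genes were left out. By this rule 164 of the 12451 genes in the table of counts were members, and they came from 42 families. Sorted by what their family is known to carry, 32 were amino acid carriers, 28 carried sodium, potassium, chloride, calcium, protons or bicarbonate, 25 carried nucleosides or nucleotide sugars and 16 carried sugars or inositol. Zinc transporters made up 6 members of the Slc30 family, which moves zinc out of the cytosol, and 10 members of the Slc39 family, which takes up zinc and other metals. The other roles had 14 or fewer members each. A further 5 members carry the name but are no transporters, among them the scaffold genes Slc9a3r1 and Slc9a3r2.

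The data are RNA counts from YUMM3.3, an established Braf-mutant mouse melanoma line, that was grown in serum-containing medium and seeded in 4 wells per group. The groups at 4 hrs and again at 12 hrs were untreated cells, cells given 40 ng/ml Activin-A, cells given 20 ng/ml IFN-γ and cells given both factors. Activin-A is a TGF-β family ligand that signals through SMAD proteins, and IFN-γ is the T cell cytokine that signals through JAK kinases. All 32 wells hold the same parental line in culture without immune cells, and since the sources speak of wells and not of separate cultures, p-values measure only the spread between wells, which may be technical.

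Glucose enters melanoma cells through Slc2a1 and, after glycolysis, lactate leaves or enters with protons through Slc16a1 and Slc16a3. Amino acid carriers such as Slc7a5 with its partner Slc3a2, Slc7a1, Slc1a4 and Slc6a9 are known targets of the transcription factor Atf4 when amino acids run short. Slc1a5, Slc7a11, Slc38a1 and Slc38a2 are also known from the response to amino acid shortage. Free zinc is held in balance by Slc30 and Slc39 proteins together with the zinc-binding metallothioneins Mt1 and Mt2.

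Libraries were made by BRB-seq, which tags the 3′ end of each mRNA with a well's barcode and so counts mRNA ends whatever the length of the gene; levels are given as CPM, a gene's counts scaled to the same total in every well and not divided by length. Wells held between 654539 and 1455074 counts, and a gene with 3 counts stood at 2.06 to 4.58 CPM depending on the well. Members took between 0.615% and 0.709% of a well's counts. All 8 melanocyte lineage markers were detected, with a summed level of 364 to 404 CPM by group. Of 5 leukocyte markers only Ptprc was in the table, at 1.16 to 3.38 CPM, and none of 2 endothelial and 3 epithelial markers was, although the labels give skin as the tissue. Fibroblast markers (3 of 3) summed to 38.5 to 65.1 CPM, lowest with both factors at 12 hrs and highest with Activin-A at 12 hrs. Among them, Col1a1 held 38.1 to 54.7 CPM in Activin-A wells and 23.1 to 30.3 CPM in both-factor wells at 12 hrs. The markers' part in any result below was not tested. Replicate 1 of Activin-A at 4 hrs stood apart. Its counts differed from those of the other wells of its group by a chi-square per gene of 2.45 to 2.89, while the value was at most 1.54 in every other pair of replicates, so members called with Activin-A at 4 hrs are also given without it.

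Slc30a4, which carries zinc into vesicles, was the most abundant member with a mean of 657 CPM over the 32 wells. The urea transporter Slc14a1 followed with 375 CPM, the glutamine and alanine carrier Slc38a2 with 285 CPM, the heavy chain Slc3a2 with 246 CPM, the lactate carrier Slc16a1 with 221 CPM, the heme transporter Slc48a1 with 207 CPM and the glucose transporter Slc2a1 with 183 CPM. In all, 14 members lay above 100 CPM, and the 10 highest held 40.3% of the members' counts. At the other end, 55 members were too low to be tested in any fit, with at most 14 counts in a well. Among these were the second glucose transporter Slc2a3, at 0 to 1.35 CPM by group, and the lysosomal peptide carrier Slc15a3, at 0 to 0.871 CPM by group, neither with more than 3 counts in a well. The 109 members that were tested passed a filter on counts that a gene can also pass through its highest group alone.

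**Figure D1:**
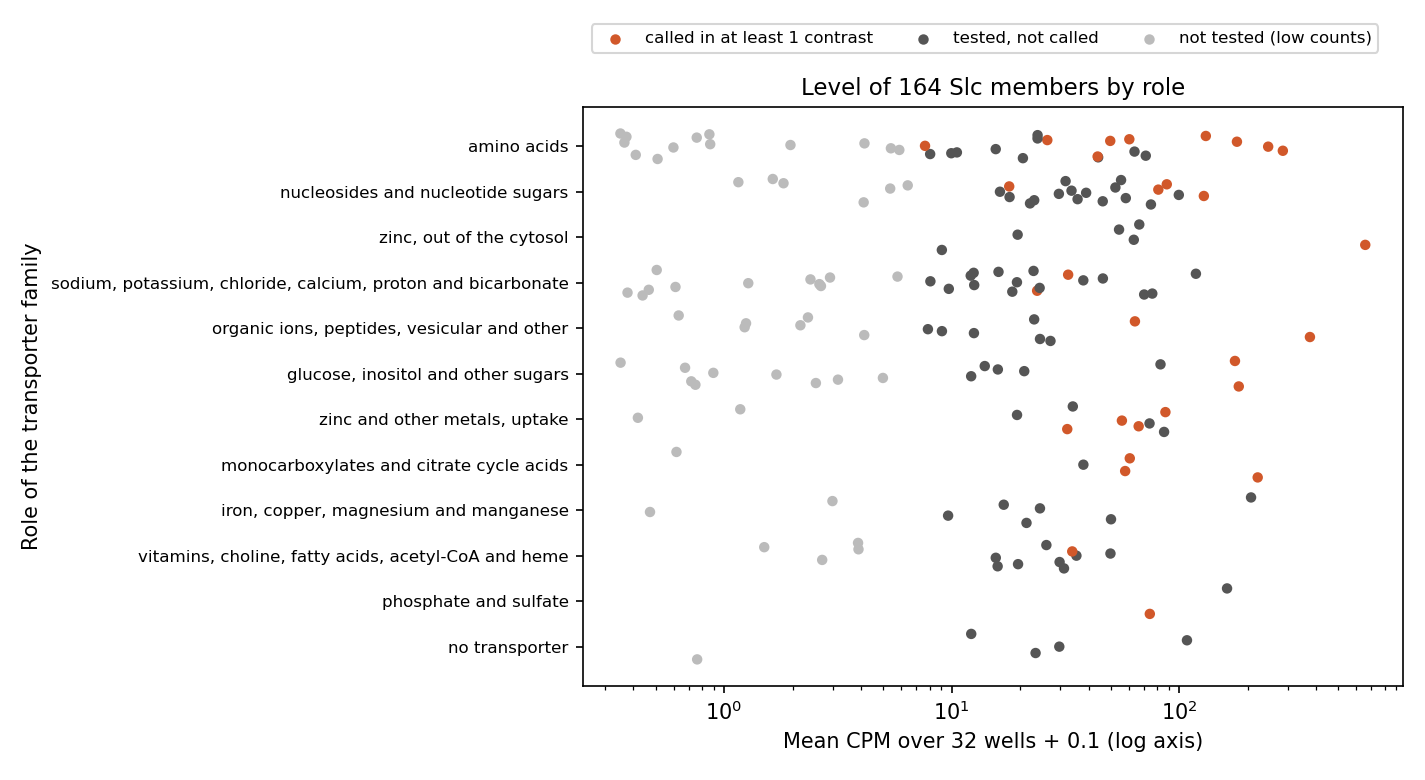
Mean level of each of the 164 members over 32 wells, in CPM plus 0.1 on a log axis, by role of the transporter family; orange points were called in at least 1 contrast, black points were tested and not called and grey points were too low to test. Slc30a4 at 657 CPM is the rightmost point, and the 55 untested members lie at the left end in nearly every role.

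Of the tested members, 29 had an adjusted p under 0.05 in at least 1 of 13 contrasts and 80 in none. The share of all genes called in at least 1 contrast is not given here, so the 29 are not read as many or few. Shares of all genes stand beside the counts of each comparison. With IFN-γ alone at 12 hrs, 5 members rose and 3 fell among 105 tested, or 4.76% and 2.86%, while 6.43% of all 8971 tested genes rose and 2.82% fell. At 4 hrs 2 members rose and 1 fell among 109, while 4.29% of all 9137 tested genes rose and 0.766% fell. When IFN-γ was added to Activin-A, 8 members rose and 6 fell at 12 hrs, or 7.62% and 5.71%, beside 6.18% and 3.44% of all genes. At 4 hrs 4 members rose and 6 fell, or 3.67% and 5.50%, beside 4.41% and 1.66% of all genes. The share of members that rose with IFN-γ was thus near that of all genes or below it, and the share that fell was near or above it. The members' median log2 fold change (log2FC) was between -0.051 and 0.047 in each of these 4 comparisons, where that of all genes lay between -0.012 and -0.0066. Single wells moved these counts: with IFN-γ alone at 12 hrs, 4 members were called without untreated replicate 1, 5 without untreated replicate 2 and 5 without IFN-γ replicate 4, and on top of Activin-A, 9 were called at 12 hrs without both-factor replicate 3 and 6 at 4 hrs without Activin-A replicate 4. DESeq2 called 3 members with IFN-γ alone at 12 hrs and 2 at 4 hrs, and on top of Activin-A 8 at 12 hrs and 6 at 4 hrs.

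With Activin-A alone at 12 hrs, 3 members fell and 0 rose among 105 tested, or 2.86% and 0%, beside 1.16% of all genes lower and 1.25% higher. At 4 hrs 2 members rose and 1 fell among 109, or 1.83% and 0.917%, beside 1.05% of all genes higher and 0.591% lower. The 2 that rose include Slc43a2, which passed the filter on counts only through wells with Activin-A, where it was higher. Slc43a2 is also among the 6 that fell when IFN-γ was added to Activin-A at 4 hrs. When Activin-A was added to IFN-γ, 2 members fell at 4 hrs, or 1.83%, beside 0.252% of all genes lower and 0.558% higher. The called shares, 2.86%, 2.75% and 1.83%, stood beside 2.41%, 1.64% and 0.810% of all genes and rest on at most 3 members each. At 12 hrs no member was called by edgeR when Activin-A was added to IFN-γ, beside 0.457% of all genes higher and 0.568% lower, although 15 members had an unadjusted p under 0.05. DESeq2 also called 0. Without both-factor replicate 2, edgeR called 1 member there, Slc35b1, and at 4 hrs the 2 members became 1 without IFN-γ replicate 1 or 2 or both-factor replicate 1 or 4. Between 4 hrs and 12 hrs without treatment 7 members rose and 6 fell, or 6.42% and 5.50% of 109, beside 2.33% and 2.57% of all 9332 genes. Only members with an adjusted p under 0.05 in edgeR's quasi-likelihood test are said below to have risen or fallen, and adjusted p-values are Benjamini-Hochberg values over all genes tested.

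**Figure D2:**
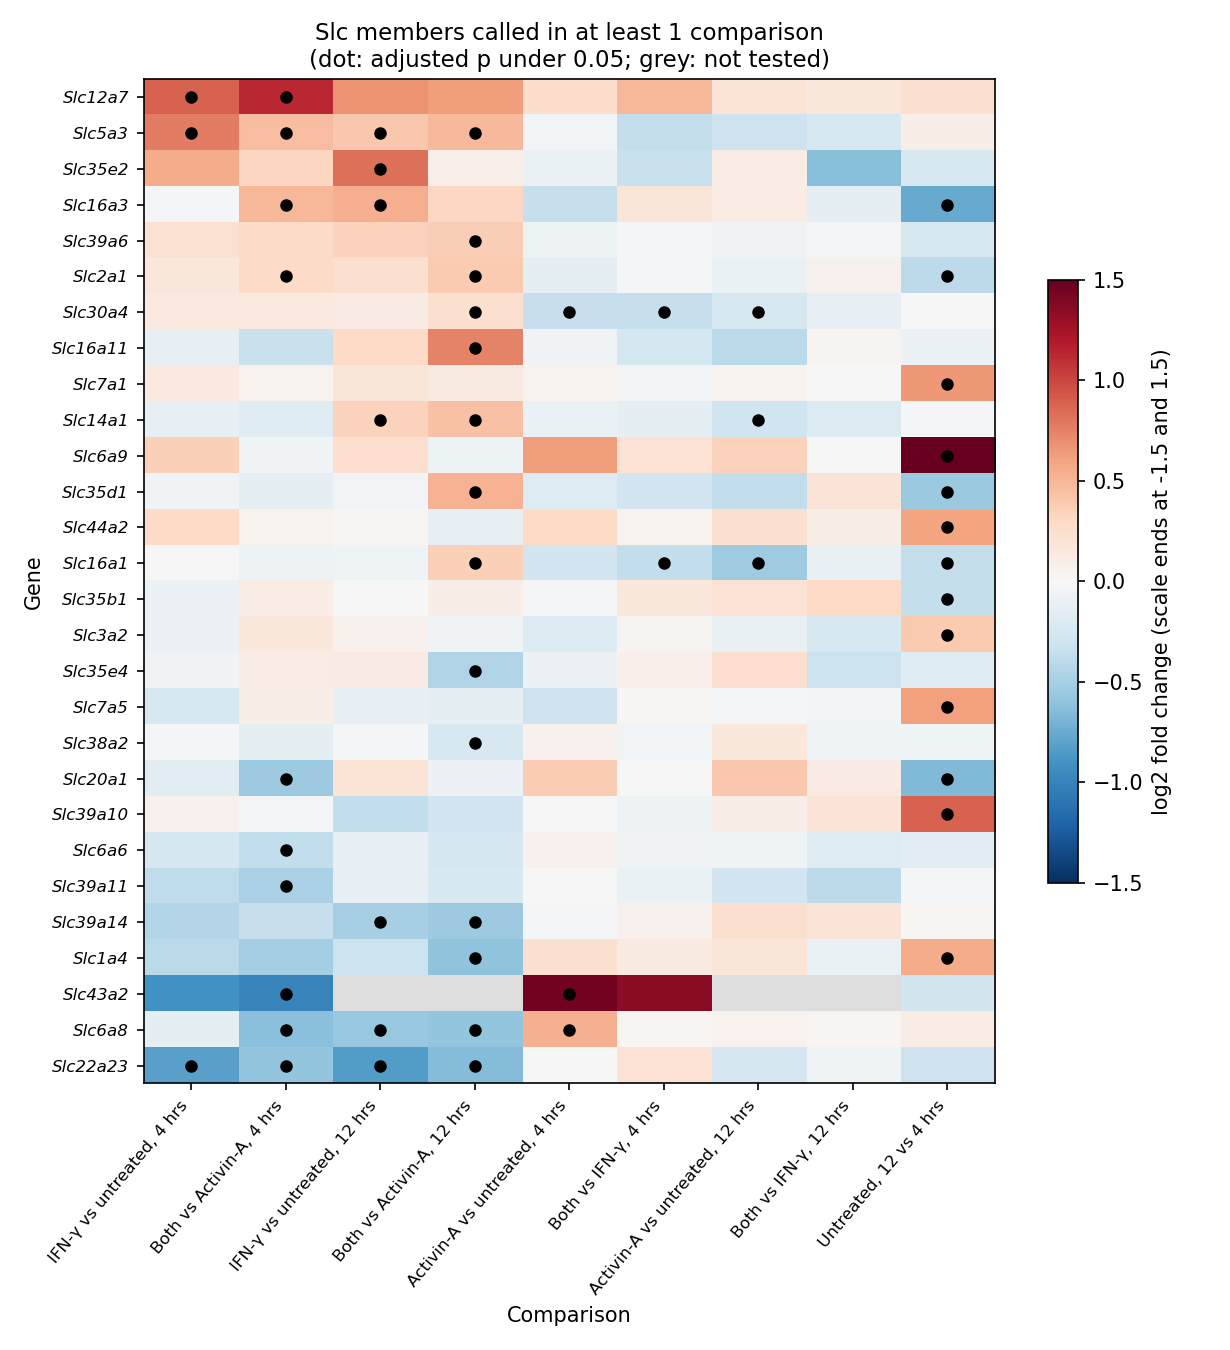
Log2 fold change of 28 called members (rows) in 9 pairwise comparisons (columns), with a dot where the adjusted p was under 0.05 and grey where the gene was not tested; Slc6a9 over time, at 1.64, lies past the end of the colour scale. Slc5a3 and Slc22a23 carry a dot in all 4 IFN-γ columns with opposite signs, and 6 of the 8 dots in the Activin-A columns are blue, for lower. Slc43a2, with a dot for higher with Activin-A, passed the filter on counts only through wells with Activin-A.

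Activin-A lowered Slc30a4 mRNA at both time points. At 4 hrs untreated wells held 709, 693, 674 and 655 CPM and Activin-A wells 519, 558, 536 and 534 CPM, and no well overlapped (log2FC -0.35 ± 0.06 (SE), adjusted p = 0.000338). Without Activin-A replicate 1 the difference was the same in direction and call (log2FC -0.34, adjusted p = 0.000208). With IFN-γ present, wells held 791, 725, 781 and 723 CPM, and with both factors 627, 589, 608 and 543 CPM, again without overlap (log2FC -0.35 ± 0.06 (SE), adjusted p = 0.00038). Every well without Activin-A thus lay above every well with it at this time. At 12 hrs untreated wells held 692, 705, 646 and 692 CPM and Activin-A wells 582, 561, 591 and 582 CPM, again without overlap (log2FC -0.24 ± 0.06 (SE), adjusted p = 0.00339). The IFN-γ wells then held 738, 805, 726 and 715 CPM and the both-factor wells 671, 674, 712 and 674 CPM. These did not overlap either, but the difference did not pass the test (log2FC -0.13 ± 0.06 (SE), adjusted p = 0.403). Both-factor wells lay above Activin-A wells at 12 hrs (log2FC 0.24 ± 0.06 (SE), adjusted p = 0.00145), whereas IFN-γ alone gave 0.12 at 12 hrs (adjusted p = 0.199) and 0.15 at 4 hrs (adjusted p = 0.225). The group means were 755 ± 36.0 CPM (SD, n = 4) with IFN-γ at 4 hrs and 746 ± 40.7 at 12 hrs, 683 ± 23.3 and 684 ± 25.7 untreated at 4 and 12 hrs, 683 ± 19.5 with both factors at 12 hrs and 592 ± 36.1 at 4 hrs, and 579 ± 12.6 and 537 ± 15.9 with Activin-A at 12 and 4 hrs. Within this order, wells of both IFN-γ groups overlapped each other, the untreated groups overlapped each other and both factors at 12 hrs, and both factors at 4 hrs overlapped both Activin-A groups. The gene is listed as ENSMUSG00000005802.

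The 250 bases before the start of Slc30a4 in RefSeq's annotation of GRCm38.p6 (chr2:122702664-122702913, reverse strand) are shown because this member had the most counts behind its response to Activin-A. Capitals mark CAGAC, the short sequence that SMAD proteins are known to bind, searched on both strands.
Slc30a4: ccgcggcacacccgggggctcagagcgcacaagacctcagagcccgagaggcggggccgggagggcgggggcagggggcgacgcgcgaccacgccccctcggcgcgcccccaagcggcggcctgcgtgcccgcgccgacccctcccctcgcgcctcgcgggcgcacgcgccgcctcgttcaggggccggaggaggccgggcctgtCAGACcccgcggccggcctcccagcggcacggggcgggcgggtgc
CAGAC was found in 42.2% of 32851 such windows and in 12 of the 21 called members that had one, so the match is a common one and describes the sequence only. The deposited counts were made on GRCm39, so these positions belong to the sequence and not to the counts.

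The metallothioneins, which bind zinc and are induced by it, were measured beside the zinc transporters. Mt1 stood at 836 ± 63.4 CPM in untreated wells and 624 ± 44.0 CPM with Activin-A at 4 hrs (SD, n = 4; log2FC -0.42 ± 0.07, adjusted p = 1.56e-05), and it fell by 0.51 on the log2 scale when Activin-A was added to IFN-γ at 4 hrs (adjusted p = 1.55e-07). Mt2 rose with IFN-γ from 94.4 ± 14.999 to 286 ± 43.5 CPM at 12 hrs (log2FC 1.59 ± 0.11, adjusted p = 7.47e-25). Their part in the results for the transporters was not tested. None of the other 5 Slc30 members was called in any comparison with all wells. Slc30a6 had a log2FC of -0.95 when Activin-A was added to IFN-γ at 4 hrs (adjusted p = 0.0601) and was called without IFN-γ replicate 4 (-1.11, adjusted p = 0.0249).

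Among the zinc uptake transporters, Slc39a14, which also carries iron and manganese, fell with IFN-γ at 12 hrs. Untreated wells held 79.8, 56.9, 56.9 and 54.6 CPM and IFN-γ wells 45.8, 41.5, 61.1 and 33.8 CPM (log2FC -0.50 ± 0.15 (SE), adjusted p = 0.0206), and 1 IFN-γ well lay within the untreated range. With Activin-A the fall was from 74.2, 82.6, 76.0 and 64.0 CPM to 44.9, 51.5, 53.8 and 54.4 CPM without overlap (log2FC -0.54 ± 0.15 (SE), adjusted p = 0.0067). DESeq2 called neither (adjusted p = 0.153 and 0.059), and edgeR lost the first without IFN-γ replicates 2 or 4 or untreated replicate 1 (adjusted p between 0.0651 and 0.302, each well left out in turn). Slc39a6 rose when IFN-γ was added to Activin-A at 12 hrs, with 62.6 to 78.2 CPM in Activin-A wells and 78.5 to 109 CPM in both-factor wells (log2FC 0.37 ± 0.13 (SE), adjusted p = 0.0499). That call sat at the threshold and was lost with DESeq2 (adjusted p = 0.209) and without Activin-A replicates 3 or 4 or both-factor replicates 2, 3 or 4 (adjusted p between 0.0548 and 0.274, each well left out in turn). Slc39a11 fell at 4 hrs under the same addition, with 69.4 to 86.7 CPM in Activin-A wells and 47.1 to 59.6 CPM in both-factor wells (log2FC -0.49 ± 0.14 (SE), adjusted p = 0.0179, and log2FC -0.55, adjusted p = 0.00839 without Activin-A replicate 1), and was not called by DESeq2 (adjusted p = 0.0903) or without Activin-A replicate 3 or both-factor replicates 1 or 4 (adjusted p between 0.0549 and 0.0916, each well left out in turn). In GENCODE's M21 annotation of GRCm38, Slc39a6 overlaps Elp2, and Slc39a11 overlaps Cog1 and Sstr2, on the opposite strand, and whether counting used the strand is not given in the sources used here.

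The lactate and pyruvate carrier Slc16a1 (ENSMUSG00000032902) fell with Activin-A at 12 hrs. Untreated wells held 224, 202, 213 and 229.9 CPM and Activin-A wells 125, 173, 146 and 165 CPM, with no overlap (log2FC -0.53 ± 0.09 (SE), adjusted p = 1.53e-05). IFN-γ wells held 198, 236, 222 and 181 CPM and both-factor wells 168, 176, 224 and 202 CPM, and both groups overlapped the untreated wells. Adding IFN-γ to Activin-A raised it (log2FC 0.36 ± 0.10 (SE), adjusted p = 0.00569), but 1 both-factor well lay within the Activin-A range, DESeq2 gave an adjusted p of 0.0533, and the call was lost without Activin-A replicate 1 or both-factor replicate 3 (adjusted p between 0.0877 and 0.102, each well left out in turn). The effect of Activin-A with IFN-γ at 12 hrs was -0.11 ± 0.09 (adjusted p = 0.755), and the difference between this and its effect alone, 0.42 ± 0.13, did not pass the test (adjusted p = 0.302). At 4 hrs untreated wells held 241, 297, 302 and 275 CPM, Activin-A wells 193, 243, 236 and 243 CPM, IFN-γ wells 285, 290.1, 272 and 261 CPM and both-factor wells 195, 211, 242 and 209.7 CPM. Here Slc16a1 fell when Activin-A was added to IFN-γ (log2FC -0.37 ± 0.09 (SE), adjusted p = 0.0172), a call lost with DESeq2 (adjusted p = 0.0723) and without both-factor replicates 1, 2 or 4 or IFN-γ replicates 1 or 2 (adjusted p between 0.0622 and 0.108, each well left out in turn). Activin-A alone gave -0.29 ± 0.09 at 4 hrs (adjusted p = 0.0663), which passed without untreated replicate 1 (adjusted p = 0.0258) and stood at log2FC -0.21, adjusted p = 0.305 without Activin-A replicate 1, the lowest well of its group.

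Other carriers of the same family changed with IFN-γ. Slc16a3, the lactate exporter of glycolytic cells, rose with IFN-γ at 12 hrs from 40.7, 42.7, 47.0 and 40.6 to 49.4, 69.5, 49.3 and 76.8 CPM without overlap (log2FC 0.55 ± 0.15 (SE), adjusted p = 0.00828). At 4 hrs it rose when IFN-γ was added to Activin-A, from 66.8, 57.8, 53.4 and 45.0 to 80.6, 90.8, 82.3 and 64.5 CPM, with 1 well overlapping (log2FC 0.50 ± 0.13 (SE), adjusted p = 0.0107). Neither call was made by DESeq2 (adjusted p = 0.0909 and 0.0586). The first was lost without IFN-γ replicates 2 or 4 (adjusted p between 0.0518 and 0.159, each well left out in turn) and the second without Activin-A replicate 4 or both-factor replicate 2 (adjusted p between 0.0828 and 0.0887, each well left out in turn), while without Activin-A replicate 1 the second gave log2FC 0.64, adjusted p = 0.00142. Slc16a3 was not called with IFN-γ alone at 4 hrs, where untreated wells held 76.8, 60.2, 81.8 and 69.5 CPM and IFN-γ wells 66.9, 73.6, 78.8 and 63.9 CPM. Nor was it called when IFN-γ was added to Activin-A at 12 hrs. There Activin-A wells held 51.1, 44.2, 46.2 and 40.6 CPM and both-factor wells 50.5, 56.0, 50.5 and 70.6 CPM. Slc16a11, a family member of less defined substrate, rose when IFN-γ was added to Activin-A at 12 hrs, from 48.7, 34.6, 51.3 and 36.9 to 67.3, 78.3, 73.6 and 70.6 CPM (log2FC 0.74 ± 0.15 (SE), adjusted p = 5.66e-05). Every both-factor well lay above every Activin-A well, and the untreated wells lay between them at 56.8 to 58.7 CPM. Basigin (Bsg), the partner that brings Slc16a1 and Slc16a3 to the membrane, was called in none of the 9 comparisons.

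The windows of 250 bases before the starts of Slc16a1 (chr3:104638414-104638663, forward strand) and Slc16a3 (chr11:120948817-120949066, forward strand), both from RefSeq's GRCm38.p6, are shown because these 2 genes and Slc2a1 fell together with time. Capitals mark ACGTG on either strand, the core that hypoxia-inducible factors are known to use. In Slc16a1 it lies in CACGTG, which reads the same on both strands, is bound by Myc-type factors and is capitalised whole.
Slc16a1: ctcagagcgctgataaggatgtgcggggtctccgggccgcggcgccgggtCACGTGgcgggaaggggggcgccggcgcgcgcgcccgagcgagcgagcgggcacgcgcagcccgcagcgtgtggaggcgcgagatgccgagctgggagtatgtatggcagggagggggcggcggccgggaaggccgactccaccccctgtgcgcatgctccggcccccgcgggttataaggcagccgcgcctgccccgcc
Slc16a3: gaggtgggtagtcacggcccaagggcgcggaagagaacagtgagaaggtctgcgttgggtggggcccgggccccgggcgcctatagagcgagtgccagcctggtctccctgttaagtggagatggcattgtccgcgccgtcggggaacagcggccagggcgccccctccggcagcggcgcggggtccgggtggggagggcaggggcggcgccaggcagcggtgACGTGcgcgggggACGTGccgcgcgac
ACGTG was found in 16.6% of the 32851 windows and CACGTG in 6.02%.

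**Figure D3:**
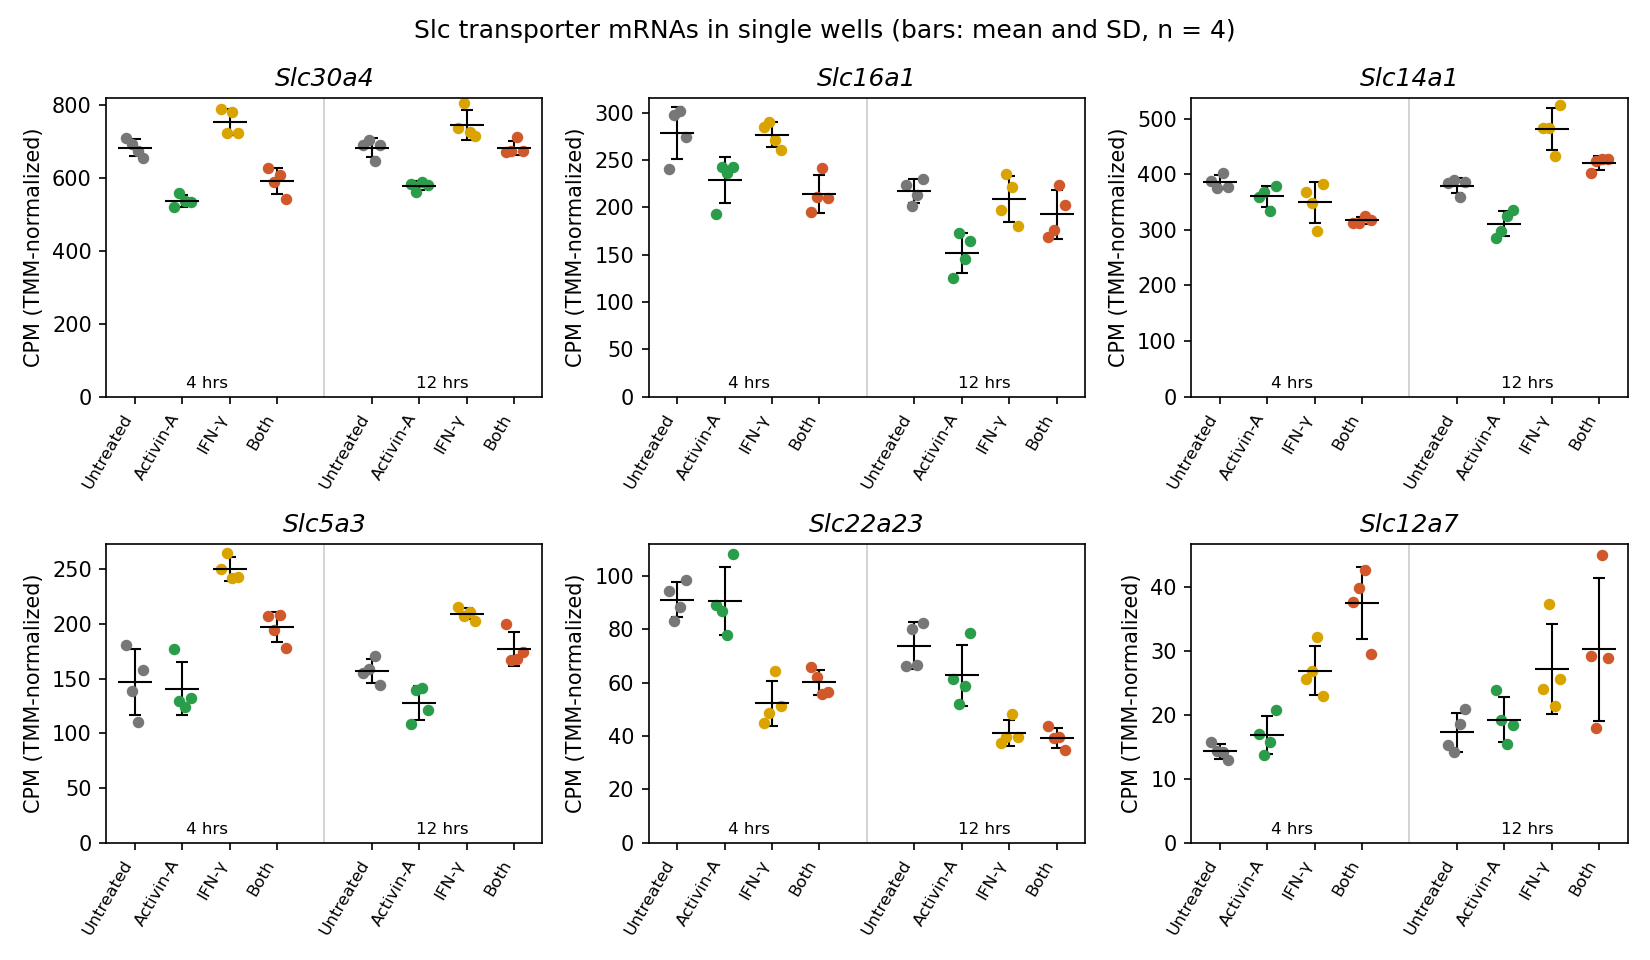
CPM of 6 members in each of 32 wells (points), with the mean and SD of 4 wells (lines), by treatment at 4 hrs and 12 hrs; every axis starts at 0. Slc30a4 is lowest with Activin-A, Slc5a3 lies higher and Slc22a23 lower in every IFN-γ group than in its control, and Slc14a1 rises with IFN-γ only at 12 hrs.

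Slc14a1 (ENSMUSG00000059336), which carries urea, was the only member whose response to IFN-γ differed between the times. At 4 hrs untreated wells held 388, 376, 402 and 377 CPM and IFN-γ wells 367, 349, 298 and 382 CPM (log2FC -0.12 ± 0.07 (SE), adjusted p = 0.502). At 12 hrs untreated wells held 384, 389.7, 359 and 385 CPM and IFN-γ wells 483, 484, 432 and 525 CPM (log2FC 0.34 ± 0.07 (SE), adjusted p = 2.37e-05). All 4 IFN-γ wells lay above all untreated wells at 12 hrs, while at 4 hrs the groups overlapped. The difference between both effects was 0.48 ± 0.10 (adjusted p = 0.00174), a contrast in which 0.579% of all genes were called, and it held in all 16 fits that left out 1 well. With Activin-A present, Activin-A wells at 12 hrs held 286, 299, 325 and 336 CPM and both-factor wells 402, 423, 427 and 427 CPM (log2FC 0.44 ± 0.07 (SE), adjusted p = 2.44e-07). At 4 hrs the same pair gave -0.18 ± 0.07 (adjusted p = 0.18). Activin-A alone lowered Slc14a1 at 12 hrs (log2FC -0.30 ± 0.07 (SE), adjusted p = 0.00295), with no overlap, a call lost without Activin-A replicate 1 (adjusted p = 0.0572).

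Among carriers of sugars and inositol, Slc5a3 (ENSMUSG00000089774), which takes up the osmolyte myo-inositol with sodium, rose with IFN-γ in all 4 comparisons. At 4 hrs untreated wells held 181, 139, 110.1 and 158 CPM and IFN-γ wells 251, 265, 242 and 243 CPM (log2FC 0.77 ± 0.10 (SE), adjusted p = 4.67e-08). Activin-A wells held 177, 129, 124 and 132 CPM and both-factor wells 207, 194, 208 and 178 CPM (log2FC 0.46 ± 0.10 (SE), adjusted p = 0.00163), or log2FC 0.62, adjusted p = 3.22e-06 without Activin-A replicate 1, the highest of its group. None of these groups overlapped its control. At 12 hrs the levels were 155, 158, 171 and 144 CPM untreated and 216, 208, 211 and 203 CPM with IFN-γ (log2FC 0.41 ± 0.09 (SE), adjusted p = 0.000165). They were 108, 139, 142 and 122 CPM with Activin-A and 199.6, 167, 168 and 175 CPM with both (log2FC 0.48 ± 0.09 (SE), adjusted p = 5.01e-05). Wells with both factors lay below wells with IFN-γ alone at both times without passing the test (log2FC -0.35 ± 0.10, adjusted p = 0.0712 at 4 hrs, and -0.24 ± 0.09, adjusted p = 0.232 at 12 hrs). DESeq2 called all 4 rises as well, and none was lost when a well was left out. In GENCODE's M21 annotation of GRCm38, Slc5a3 overlaps Mrps6 on the same strand, and how shared reads were assigned is not given in the sources used here.

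Slc2a1, through which most cells take up glucose, rose when IFN-γ was added to Activin-A. With IFN-γ alone its log2FC was 0.24 ± 0.09 at 12 hrs (adjusted p = 0.115), or 0.36 without untreated replicate 3 (adjusted p = 0.00795), and 0.17 ± 0.09 at 4 hrs (adjusted p = 0.42). On top of Activin-A at 12 hrs it went from 149, 134, 152 and 122 to 192, 169, 202 and 175 CPM without overlap (log2FC 0.40 ± 0.10 (SE), adjusted p = 0.00184), a call that DESeq2 also made (adjusted p = 0.0201). At 4 hrs it went from 159.8, 189, 198 and 168 to 205, 246, 195 and 213 CPM, with overlap (log2FC 0.29 ± 0.09 (SE), adjusted p = 0.0415). That second call was lost with DESeq2 (adjusted p = 0.161). It was also lost without Activin-A replicates 1 or 4 or both-factor replicates 1, 2 or 4 (adjusted p between 0.0511 and 0.294, each well left out in turn). Without Activin-A replicate 1 the difference at 4 hrs was log2FC 0.23, adjusted p = 0.166. Txnip, which lowers glucose uptake by acting on glucose transporters, rose with IFN-γ from 14.7 ± 5.69 to 44.7 ± 10.99 CPM at 4 hrs (SD, n = 4; log2FC 1.61 ± 0.22, adjusted p = 6.84e-08). The window before the start of Slc2a1 (chr4:119108495-119108744, forward strand, GRCm38.p6, ACGTG in capitals) holds the motif once.
Slc2a1: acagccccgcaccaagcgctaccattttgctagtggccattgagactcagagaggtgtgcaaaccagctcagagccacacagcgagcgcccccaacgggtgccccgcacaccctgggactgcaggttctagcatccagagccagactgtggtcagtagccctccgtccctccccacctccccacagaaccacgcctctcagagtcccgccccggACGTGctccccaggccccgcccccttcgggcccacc

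Slc22a23 (ENSMUSG00000038267), an orphan of the organic ion transporter family, fell with IFN-γ in all 4 comparisons. At 4 hrs untreated wells held 94.3, 83.1, 88.3 and 98.2 CPM and IFN-γ wells 45.0, 48.5, 64.2 and 51.1 CPM (log2FC -0.81 ± 0.13 (SE), adjusted p = 5.82e-06). Activin-A wells held 89.1, 86.7, 77.9 and 108 CPM and both-factor wells 66.0, 61.9, 55.8 and 56.5 CPM (log2FC -0.59 ± 0.12 (SE), adjusted p = 0.000539, and log2FC -0.60, adjusted p = 0.00101 without Activin-A replicate 1). At 12 hrs the fall was from 66.0, 80.1, 66.7 and 82.4 to 37.3, 39.4, 48.3 and 39.6 CPM without Activin-A (log2FC -0.83 ± 0.15 (SE), adjusted p = 3.95e-06). It was from 61.4, 51.9, 58.5 and 78.7 to 43.7, 39.2, 39.5 and 34.7 CPM with it (log2FC -0.65 ± 0.16 (SE), adjusted p = 0.00154). No IFN-γ well reached the lowest well of its control in any of the 4, and no call was lost with DESeq2 or when a well was left out.

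Among the ion carriers, of which 17 were tested, Slc12a7 (ENSMUSG00000017756), a potassium and chloride cotransporter, rose with IFN-γ at 4 hrs from 15.7, 14.3, 14.2 and 12.9 to 25.5, 26.8, 32.1 and 22.99 CPM (log2FC 0.89 ± 0.23 (SE), adjusted p = 0.00736). With Activin-A it rose from 17.0, 13.7, 15.8 and 20.7 to 37.7, 39.9, 42.6 and 29.6 CPM (log2FC 1.13 ± 0.20 (SE), adjusted p = 1.99e-05), the largest rise with IFN-γ among the called members, and log2FC 1.12, adjusted p = 0.000132 without Activin-A replicate 1. Neither pair overlapped, at 13 to 18 counts per untreated well, 21 to 31 per IFN-γ well, 9 to 26 per Activin-A well and 33 to 47 per both-factor well. DESeq2 called the second and gave an adjusted p of 0.0561 for the first. At 12 hrs the differences were 0.68 ± 0.24 (adjusted p = 0.0549) and 0.63 ± 0.23 (adjusted p = 0.0684). The first passed without IFN-γ replicate 3 or untreated replicate 4 (adjusted p between 0.0373 and 0.0442, each well left out in turn) and the second without Activin-A replicate 1 or both-factor replicate 2 (adjusted p between 0.0128 and 0.0445, each well left out in turn). The change of the IFN-γ effect with time was -0.20 ± 0.34 (adjusted p = 0.953).

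Among the amino acid carriers, 17 were tested at 12 hrs and 19 at 4 hrs. None rose with IFN-γ in any of the 4 comparisons, in which 4.29% to 6.43% of all genes rose, a share that comes to about 1 carrier per comparison. With IFN-γ alone 1 fell at 12 hrs and 0 at 4 hrs, and on top of Activin-A 3 fell at each time, beside 2.82%, 0.766%, 3.44% and 1.66% of all genes. The 3 at 4 hrs include Slc43a2, which passed the filter on counts only through wells with Activin-A. Slc6a8, the creatine transporter, fell with IFN-γ at 12 hrs from 60.6, 61.4, 41.5 and 49.9 to 39.8, 38.4, 35.4 and 33.8 CPM (log2FC -0.57 ± 0.16 (SE), adjusted p = 0.00922). With Activin-A at 12 hrs it fell from 60.6, 46.1, 66.8 and 51.7 to 37.0, 34.7, 36.3 and 41.6 CPM (log2FC -0.59 ± 0.16 (SE), adjusted p = 0.00721). At 4 hrs Activin-A raised it from 51.5, 49.7, 37.1 and 61.5 to 71.4, 66.9, 77.9 and 71.2 CPM (log2FC 0.53 ± 0.14 (SE), adjusted p = 0.0249), and both-factor wells were back at 49.2, 50.1, 38.8 and 48.4 CPM (log2FC -0.63 ± 0.14 (SE), adjusted p = 0.000959). None of these 4 pairs overlapped. Without Activin-A replicate 1 the last 2 values were log2FC 0.53, adjusted p = 0.0473 and log2FC -0.63, adjusted p = 0.00216. DESeq2 called only the fall at 4 hrs (adjusted p = 0.0123), and gave 0.0864 and 0.0591 for the falls at 12 hrs and 0.213 for the rise. EdgeR lost the rise without Activin-A replicate 3 or untreated replicates 1, 2 or 3 (adjusted p between 0.0626 and 0.156, each well left out in turn), the fall with IFN-γ alone without untreated replicates 1 or 2 (adjusted p between 0.0578 and 0.0704, each well left out in turn) and the fall from Activin-A at 12 hrs without Activin-A replicate 3 (adjusted p = 0.0534).

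Slc43a2 (ENSMUSG00000038178), a facilitated carrier of large neutral amino acids, was called with Activin-A at 4 hrs. It passed the filter on counts only through wells that held Activin-A, where it was higher, so that the size of its change describes a gene chosen in part by that difference. At 4 hrs untreated wells held 8.73, 6.69, 8.72 and 5.95 CPM and Activin-A wells 15.7, 21.3, 24.5 and 22.5 CPM (log2FC 1.44 ± 0.30 (SE), adjusted p = 0.0024, and log2FC 1.59, adjusted p = 0.000833 without Activin-A replicate 1). It fell when IFN-γ was added, to 11.5, 4.24, 13.2 and 12.5 CPM (log2FC -0.9996 ± 0.28 (SE), adjusted p = 0.0166, and log2FC -1.15, adjusted p = 0.00636 without that replicate). Of the 4 both-factor wells, 3 stood above every IFN-γ well, at 3.65, 2.6, 7.3 and 3.41 CPM (log2FC 1.35 ± 0.42 (SE), adjusted p = 0.12), and that difference was called without both-factor replicate 2 (adjusted p = 0.0342), at a log2FC of 1.64. Activin-A wells overlapped neither untreated nor both-factor wells, but these values rest on few counts, 6 to 10 per untreated well and 14 to 28 per Activin-A well. DESeq2 called the rise (adjusted p = 0.031) and not the fall (adjusted p = 0.135), and edgeR lost the fall without Activin-A replicates 3 or 4 or both-factor replicate 2 (adjusted p between 0.0551 and 0.169, each well left out in turn). At 12 hrs the gene was too low to test.

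Of the other amino acid carriers, Slc1a4, which exchanges alanine, serine and cysteine, fell when IFN-γ was added to Activin-A at 12 hrs, from 55.8, 64.4, 66.8 and 71.3 to 38.1, 45.9, 38.4 and 45.1 CPM (log2FC -0.61 ± 0.15 (SE), adjusted p = 0.00271; DESeq2 0.0237). Slc38a2, the most abundant amino acid carrier, fell in the same comparison, with 292 to 337 CPM in Activin-A wells and 247 to 274 CPM in both-factor wells (log2FC -0.24 ± 0.08 (SE), adjusted p = 0.0282). That small change was lost with DESeq2 (adjusted p = 0.102) and without Activin-A replicates 1 or 4 or both-factor replicates 1 or 3 (adjusted p between 0.0546 and 0.175, each well left out in turn). The taurine transporter Slc6a6 fell under the same addition at 4 hrs, with 193 to 243 CPM in Activin-A wells and 151 to 181 CPM in both-factor wells (log2FC -0.37 ± 0.09 (SE), adjusted p = 0.00563, and log2FC -0.38, adjusted p = 0.00424 without Activin-A replicate 1), which DESeq2 also called (adjusted p = 0.0241) and which was lost without Activin-A replicate 4 (adjusted p = 0.0615). Slc7a11, the cystine and glutamate exchanger, was called in no comparison, at 22.3 ± 4.3 CPM untreated and 29.0 ± 5.5 CPM with IFN-γ at 12 hrs (SD, n = 4; log2FC 0.37 ± 0.22, adjusted p = 0.376).

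The Slc35 family carries nucleotide sugars and ATP into the endoplasmic reticulum and Golgi. Slc35d1, which brings UDP-sugars into the endoplasmic reticulum, rose when IFN-γ was added to Activin-A at 12 hrs from 58.2, 54.7, 62.6 and 41.8 to 75.1, 76.1, 94.5 and 69.4 CPM (log2FC 0.52 ± 0.14 (SE), adjusted p = 0.00521; DESeq2 0.0414), a call lost without both-factor replicate 3 (adjusted p = 0.0674). The orphan Slc35e4 fell in that comparison, with 93.2 to 107 CPM in Activin-A wells and 49.4 to 81.7 CPM in both-factor wells (log2FC -0.45 ± 0.13 (SE), adjusted p = 0.0104), where both-factor replicate 3 was far below the others. That call was lost with DESeq2 (adjusted p = 0.0678) and without both-factor replicate 3 (adjusted p = 0.166). Slc35e2 rose with IFN-γ alone at 12 hrs, from 12.3, 11.6, 13.1 and 18.6 to 25.3, 24.9, 29.0 and 19.0 CPM (log2FC 0.82 ± 0.25 (SE), adjusted p = 0.0162), and both-factor wells held 14.6, 16.8, 15.4 and 15.04 CPM. DESeq2 did not call it (adjusted p = 0.121), and it was lost without IFN-γ replicate 3 or untreated replicates 1 or 2 (adjusted p between 0.0672 and 0.0865, each well left out in turn). The phosphate carrier Slc20a1 fell when IFN-γ was added to Activin-A at 4 hrs, from 115, 98.8, 102 and 117 to 71.2, 86.6, 70.0 and 70.8 CPM without overlap (log2FC -0.54 ± 0.12 (SE), adjusted p = 0.000651; DESeq2 0.00664), and log2FC -0.50, adjusted p = 0.00373 without Activin-A replicate 1.

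Between 4 hrs and 12 hrs without treatment, 5 of the 19 tested amino acid carriers rose and none fell, beside 2.33% of all genes higher and 2.57% lower. The median log2FC of the 19 was 0.03, with 10 of them above 0. Slc6a9, the glycine transporter, rose most, from 14.0, 5.73, 12.0 and 9.92 to 33.0, 30.3, 22.96 and 46.4 CPM (log2FC 1.64 ± 0.26 (SE), adjusted p = 1.95e-06). Slc7a5 and its heavy chain Slc3a2, which together exchange large neutral amino acids, rose from 114, 90.8, 112 and 131 to 176, 158, 166 and 187 CPM (log2FC 0.61 ± 0.11 (SE), adjusted p = 4.37e-05) and from 220.0, 195, 242 and 234 to 296, 285, 296 and 295 CPM (log2FC 0.40 ± 0.08 (SE), adjusted p = 0.000293). In each of these 3 genes every well at 12 hrs lay above every well at 4 hrs. Slc6a9 overlaps Ccdc24 and B4galt2 on the opposite strand in GRCm38, and whether counting used the strand is not given in the sources used here. Slc7a1, which takes up arginine and lysine, rose from 45.4, 41.1, 39.3 and 49.6 to 68.3, 63.2, 75.4 and 70.8 CPM (log2FC 0.65 ± 0.15 (SE), adjusted p = 0.00168). Slc1a4 rose from 41.9, 35.4, 41.4 and 33.7 to 59.1, 59.6, 62.3 and 41.8 CPM (log2FC 0.56 ± 0.15 (SE), adjusted p = 0.0134), where 1 well at 12 hrs overlapped. Its call was lost with DESeq2 (adjusted p = 0.0566) and without untreated 12 hrs replicates 1 or 3 or untreated 4 hrs replicates 2 or 4 (adjusted p between 0.0531 and 0.0648, each well left out in turn). These 5 are also the members called in a list of 9 tested genes known from the amino acid shortage response, whose median log2FC was 0.40 beside -0.0019 over all genes. The other 4 of that list, Slc1a5, Slc7a11, Slc38a1 and Slc38a2, had log2FC of 0.15, -0.43, 0.36 and -0.06 and were not called. Atf4 itself rose from 371 ± 13.04 to 618 ± 40.1 CPM (SD, n = 4, log2FC 0.74 ± 0.07, adjusted p = 3.64e-15). It also rose with IFN-γ alone at 4 hrs (log2FC 0.27 ± 0.07, adjusted p = 0.00884). In that comparison no amino acid carrier rose, and their median log2FC was -0.13. Atf4 was measured as mRNA only, and its part in the carriers' levels over time or with IFN-γ was not tested.

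Over the same hours 2 of 4 tested monocarboxylate carriers, 1 of 2 phosphate and sulfate carriers, 1 of 7 carriers of sugars and inositol and 2 of 19 carriers of nucleosides and nucleotide sugars fell, beside 2.57% of all genes, and the median log2FC of the 7 carriers of sugars and inositol was 0.09, with 6 of them above 0. Slc16a3 fell from 76.8, 60.2, 81.8 and 69.5 to 40.7, 42.7, 47.0 and 40.6 CPM (log2FC -0.75 ± 0.15 (SE), adjusted p = 0.000245) and Slc20a1 from 93.4, 68.8, 86.1 and 87.3 to 48.4, 54.3, 55.8 and 55.7 CPM (log2FC -0.66 ± 0.13 (SE), adjusted p = 0.000299), both without overlap. The lactate carrier Slc16a1 fell from the wells given above by 0.36 on the log2 scale (SE 0.09, adjusted p = 0.0052). Slc2a1 fell from 207, 181, 193 and 205 to 150.4, 132, 191 and 127 CPM, with 1 well overlapping (log2FC -0.39 ± 0.10 (SE), adjusted p = 0.00496). Slc35d1 fell as well, with 90.8 to 115 CPM at 4 hrs and 59.2 to 80.9 CPM at 12 hrs (log2FC -0.56 ± 0.12 (SE), adjusted p = 0.00109). Slc35b1, which exchanges ATP into the endoplasmic reticulum, fell with overlap, at 119 to 147 CPM and then 101 to 125 CPM (log2FC -0.36 ± 0.11 (SE), adjusted p = 0.0445). The last call was lost with DESeq2 (adjusted p = 0.1) and without untreated 12 hrs replicates 1, 3 or 4 or untreated 4 hrs replicates 1, 2 or 4 (adjusted p between 0.106 and 0.14, each well left out in turn). Lactate dehydrogenase Ldha moved the same way, from 3251 ± 98.0 to 2662 ± 71.9 CPM (SD, n = 4; log2FC -0.29 ± 0.05, adjusted p = 1.13e-05). The hypoxia-inducible factor gene Hif1a (log2FC 0.11 ± 0.10, adjusted p = 0.62) and Myc (log2FC 0.15 ± 0.08, adjusted p = 0.355) were not called over these hours. These are mRNA levels only, and the part of either factor in the falls was not tested. ACGTG lies in the window of 4 of the 6 members that fell, those shown above and Slc20a1. It lies in 1 of the 6 windowed members among the 7 that rose, Slc3a2, beside 32 of the 124 members with a window. TGATGNAA, a form of the element that Atf4-type factors are known to use, searched on both strands, lies in none of the 11 windows of these 6 members that rose, in windows of 5 of the 124 members and in 3.45% of all windows. These counts are small, the motif was searched after the changes were known, and no test was made. Slc20a1 holds it in the first of its 2 windows (chr2:129198523-129198772, forward strand, GRCm38.p6), as CACGTG at 2 places.
Slc20a1: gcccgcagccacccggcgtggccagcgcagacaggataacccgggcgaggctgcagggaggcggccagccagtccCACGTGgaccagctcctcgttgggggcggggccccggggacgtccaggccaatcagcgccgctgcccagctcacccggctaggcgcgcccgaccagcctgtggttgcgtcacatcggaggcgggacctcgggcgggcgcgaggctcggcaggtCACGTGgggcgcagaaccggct

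The zinc importer Slc39a10 rose from 21.0, 24.8, 22.9 and 25.8 to 57.6, 39.2, 35.0 and 38.3 CPM over time without overlap (log2FC 0.88 ± 0.18 (SE), adjusted p = 0.00055). The zinc exporter Slc30a1 was too low to test among the 12 hrs wells alone and passed the filter at 4 hrs, where it was higher. The size of its change thus describes a gene chosen in part by that difference. Slc30a1 went from 10.4 ± 3.59 to 4.24 ± 0.649 CPM and was not called (adjusted p = 0.0684) except without untreated 4 hrs replicate 1 (adjusted p = 0.0495). Mt1 fell from 836 ± 63.4 to 330.0 ± 26.9 CPM in these wells (SD, n = 4; log2FC -1.35 ± 0.07, adjusted p = 3.26e-30) and Mt2 by 1.38 on the log2 scale. For Slc30a4 the log2FC over time was 0.0028, with a 95% interval of -0.11 to 0.12. The choline carrier Slc44a2 rose with 20.7 to 28.8 CPM at 4 hrs and 32.03 to 41.8 CPM at 12 hrs (log2FC 0.59 ± 0.19 (SE), adjusted p = 0.0479), which DESeq2 did not call (adjusted p = 0.123) and which was lost without untreated 12 hrs replicates 1, 3 or 4 or untreated 4 hrs replicates 1, 2 or 3 (adjusted p between 0.0655 and 0.161, each well left out in turn).

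**Figure D4:**
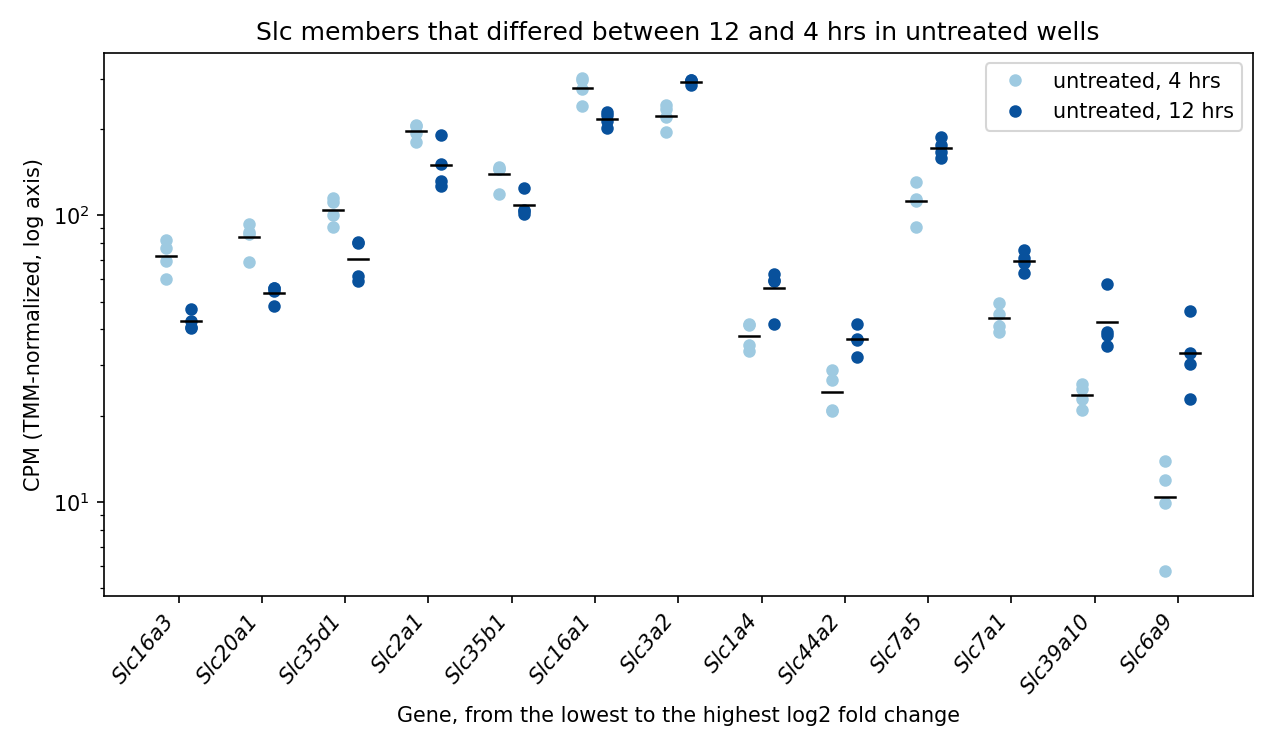
CPM (log axis) of the 13 members that differed between untreated wells at 4 hrs (light) and 12 hrs (dark), ordered from the lowest to the highest log2 fold change, with 4 wells each as points and their mean as a line. The 6 genes at the left fell, led by Slc16a3 at -0.75, and the 7 at the right rose, up to Slc6a9 at 1.64; points of Slc2a1, Slc35b1 and Slc1a4 overlap between the times.

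No member had an effect of Activin-A that edgeR found to differ with IFN-γ, either at 12 hrs (beside 0.0111% of all genes) or at 4 hrs (beside 0.0%), and none had an effect of Activin-A that differed with time (beside 0.0214%). At an unadjusted p under 0.05 there were 9, 5 and 6 members, and DESeq2 called 0 in each. For Slc30a4 the difference between the effects of Activin-A with and without IFN-γ was -0.01 ± 0.09 at 4 hrs, with a 95% interval of -0.18 to 0.17. For Slc43a2 the change of the Activin-A effect from 4 hrs to 12 hrs was -1.30 ± 0.53 (adjusted p = 0.747). This gene passed the filter only through wells with Activin-A and was too low to test among the 12 hrs wells alone. The value therefore decides nothing about a change with time.

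The comparisons of IFN-γ with untreated wells and of both factors with Activin-A share no wells. At 12 hrs 5 members were called in the same direction in both, Slc14a1, Slc22a23, Slc39a14, Slc5a3 and Slc6a8, which is 62.5% of the 8 called with IFN-γ alone and 35.7% of the 14 called on top of Activin-A. For all genes these shares were 62.4% and 60.02%. At 4 hrs the shared members were Slc12a7, Slc22a23 and Slc5a3, all 3 called with IFN-γ alone and 30.0% of the 10 called on top of Activin-A, beside 75.8% and 63.1% for all genes. Activin-A against untreated and both factors against IFN-γ shared Slc30a4 at 4 hrs, 33.3% of the 3 and 50.0% of the 2 members called, beside 30.0% and 60.8% for all genes. At 12 hrs they shared 0 members, of 3 and 0 called, beside 19.9% and 46.7% for all genes.

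Several carriers of known interest in melanoma or in innate immune signalling were measured and not called. Slc19a1, which imports folate and cyclic dinucleotides, the ligands of STING, stood between 26.5 ± 4.82 CPM with both factors and 38.1 ± 10.3 CPM untreated at 4 hrs (SD, n = 4), and had an adjusted p above 0.05 in every comparison. The related Slc46a1 and Slc46a3 were too low to test, at no more than 5.86 and 2.35 CPM in any group. The melanosome carriers Slc24a5 and Slc45a2, which act in pigment formation, stood at 23.01 ± 3.74 and 18.8 ± 3.32 CPM in untreated wells at 12 hrs and were called in none. Over the 8 group means of log2 CPM, the member most like Slc16a1 was the sodium and proton exchanger Slc9a2 (Pearson's r = 0.97, the second highest of 9331 genes), followed by Slc35d1 (0.92) and Slc41a2 (0.78). Slc9a2 ran from 134 ± 20.2 CPM untreated at 4 hrs to 101 ± 6.27 CPM with Activin-A at 12 hrs. The members most like Slc30a4 were Slc45a2 (r = 0.74), Slc22a15 (0.69) and Slc5a3 (0.67). These r describe 8 points that share wells and depth with each other, and they carry no test.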

How the data were processed

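The deposited table holds raw counts per gene for 32 libraries that the authors made by 3′ barcoded, pooled RNA sequencing, and no value in it is normalized. The submitters' processing notes name STAR 2.7.10b, featureCounts, GRCm39 and DESeq2 1.36.0. The annotation, the strand setting and any collapse of molecular identifiers are not given in the sources used here, so overlapping genes may share counts, and floors of 3 counts cover counting error only. Of 12451 rows, 14 had no gene symbol and stayed in the fits under their identifiers.

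Counts were tested with the quasi-likelihood test of edgeR 4.0.16 (R 4.3.3) after its filterByExpr filter and TMM normalization, over the 16 wells of a time point or all 32 wells for contrasts across time, with Benjamini-Hochberg adjustment over all genes tested and a threshold of 0.05. An effect was called different between conditions only by the contrast of both effects. CPM are TMM-normalized values from the fit of all wells, and their logarithms were taken with a prior count of 2. Named genes were Slc16a1 and Slc30a4, the 3 highest and 3 lowest log2FC among called members with a mean of 10 or more counts in each pairwise comparison, members called for a difference of effects, and called members of the role lists, in which all others fell. Alternatives were the Wald test of DESeq2 1.42.0, DESeq2-type (RLE) scaling, no filter, at least 10 counts in every well, a replicate block, all 32 wells in 1 fit and each well left out in turn. On simulated counts edgeR recovered between 96 and 97 of 100 genes changed 2-fold and 100 of 100 changed 4-fold, with 8 to 12 false calls beside them (DESeq2 86 to 93 of 100 changed 2-fold, with 3 to 5 false calls), in simulations of IFN-γ against untreated at 12 and 4 hrs and of untreated wells over time (8932 to 9269 genes). Promoter windows came from a RefSeq table of GRCm38.p6, where 124 of 164 members had one, and were searched as text. The values of 1 called member are not reported here. Members, lists and motifs were chosen with earlier results of these data known.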

Additional observations from a re-analysis of the deposited data

Results flagged for a closer look

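A single well stood apart from the other 3 of its group in 19 of the 224 groups of 4 tested for 28 called members, 8.48%, where chance gives about 1 in 20. In Activin-A at 4 hrs it was replicate 1 for all 3 genes concerned: Slc16a1 at 193 CPM, Slc35d1 at 102 CPM and Slc5a3 at 177 CPM. With both factors at 4 hrs it was replicate 2 for Slc20a1 at 86.6 CPM and for Slc7a5 at 79.8 CPM, replicate 3 for Slc6a8 at 38.8 CPM and replicate 1 for Slc6a9 at 7.33 CPM. With IFN-γ at 4 hrs it was replicate 4 for Slc39a10, at 21.3 CPM.

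Among untreated wells at 4 hrs, replicate 3 stood apart for Slc35b1 at 119 CPM and Slc35e2 at 22.9 CPM, and replicate 2 for Slc39a14 at 56.4 CPM. Among untreated wells at 12 hrs, replicate 2 stood apart for Slc16a11 at 58.7 CPM, Slc35b1 at 125 CPM and Slc3a2 at 285 CPM, replicate 4 for Slc1a4 at 41.8 CPM and replicate 1 for Slc39a14 at 79.8 CPM. The distance was small for Slc16a11, where the other 3 lay between 56.8 and 56.9 CPM, and for Slc3a2, where they lay between 295 and 296 CPM. With both factors at 12 hrs, replicate 3 stood apart for Slc30a4 at 712 CPM and Slc35e4 at 49.4 CPM, and replicate 1 for Slc14a1 at 402 CPM, where the other 3 lay between 423 and 427 CPM.

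The log2FC of Slc14a1 with IFN-γ was higher at 12 hrs than at 4 hrs by 0.48, tested as a difference of both effects with edgeR. It was negative at 4 hrs and positive at 12 hrs, as it was when IFN-γ was added to Activin-A.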

How the results depend on the processing

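Of the 57 calls of a member in a contrast, DESeq2 also made 36 and lost 21, all of which kept their direction. With DESeq2, called members numbered 3 with IFN-γ alone at 12 hrs, 8 at 12 hrs and 6 at 4 hrs when IFN-γ was added to Activin-A, and 1 when Activin-A was added to IFN-γ at 4 hrs, where all 32 wells in 1 fit gave 4. The cause was not tested. Leaving out a well gave, at 12 and 4 hrs, 4 to 10 and 3 to 4 members with IFN-γ alone, 9 to 15 and 6 to 11 for IFN-γ on Activin-A, 2 to 4 and 2 to 3 for Activin-A alone, 0 to 1 and 1 to 3 for Activin-A on IFN-γ, 10 to 13 over time, and 1 in each fit for the IFN-γ effect over time. Values near 0 changed sign. For Slc16a1 with IFN-γ at 4 hrs (0.0029) the log2FC was -0.004 with DESeq2, -0.0043 with RLE scaling, -0.0076 with no filter and -0.0068 with all 32 wells. Leaving out wells gave -0.0652 to 0.038 for it, -0.135 to 0.0078 for Slc16a1 with IFN-γ at 12 hrs and -0.0201 to 0.0279 for Slc30a4 over time. Replicate numbers did not pair the wells (mean correlation of deviations -0.00023 for wells of the same number). With the replicate block, called members numbered 8 and 3 with IFN-γ alone at 12 and 4 hrs, 13 and 9 for IFN-γ on Activin-A, 3 and 3 for Activin-A alone, 0 and 2 for Activin-A on IFN-γ, and 11 over time; the block lost Slc2a1 with IFN-γ on Activin-A at 4 hrs (adjusted p = 0.0606), Slc39a6 with it at 12 hrs (0.0583), and Slc35b1 (0.0526) and Slc44a2 (0.0542) over time. Depth limits the 55 untested members.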
